A study of Mus musculus with 6 samples.

Results

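The cytosolic ribosomal protein genes encode the proteins that, with the ribosomal RNAs, make up the ribosomes of the cytoplasm. They were taken from the deposited table as every gene whose mouse symbol was Rpl or Rps followed by a number, with or without an a, l, x or y at the end, or was *Rplp0*, *Rplp1*, *Rplp2* or *Rpsa*. The S6 kinases and the symbols marked as pseudogenes were left out. This gave 80 of the 22322 genes in the table, 49 of the large subunit and 31 of the small subunit, and 77 of them passed the filter on low counts beside 14188 genes in all. The rule itself reads names only.

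A ribosome consists of a small subunit, which reads the mRNA, and a large subunit, which joins amino acids. Its proteins are made in nearly equal numbers, from genes that are scattered over the genome and transcribed at high rates in every cell. Their mRNAs are short, abundant and stable, and most begin with a run of pyrimidines, the 5′ terminal oligopyrimidine (TOP) motif, through which mTOR complex 1 and the RNA-binding protein LARP1 set how much of each mRNA is translated. In the hypothalamus this pathway is known for its link to nutrient supply.

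RNA was measured in the arcuate nucleus (ARC), the part of the mediobasal hypothalamus that holds the *Agrp*, *Pomc* and *Kiss1* neurons, of male C57BL/6J mice. From the age of 4 weeks they ate, for 16 weeks, either normal chow with 16.5% fat (NCD) or a diet with 60% fat (HFD). Laser capture microdissection (LCM) of frozen sections gave the tissue, and poly(A) RNA was sequenced in 3 libraries per diet, called here NCD1, NCD2 and NCD3 and HFD1, HFD2 and HFD3. The methods also describe a cross of Kiss1-Cre and R26R-EYFP mice that was used to see the *Kiss1* neurons, and the sources used here do not say whether a library came from 1 mouse or several. The p-values therefore measure only the spread between these libraries. A library holds RNA of all cells in the cut area, so that fewer cells of a type and less RNA per cell cannot be told apart.

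The tissue carried the peptide genes of the ARC. All 15 genes of a list of ARC neuron markers passed the filter, and their summed share of the counts lay between 0.223% in NCD1 and 0.363% in HFD3. *Kiss1* itself had 0 counts in NCD1 and in HFD1 and between 21 and 42 in the other 4 libraries. *Gm28040*, a gene model that overlaps *Kiss1* on the same strand, had 70 counts in NCD1 and 99 in HFD1, against 15 to 39 elsewhere, so the division of reads between both models differed between libraries.

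The genes lay on 19 chromosomes. Chromosome 7 carried 14 of them, and chromosome X carried *Rpl10*, *Rpl36a*, *Rpl39* and *Rps4x*. Small nucleolar RNA genes, whose products guide the chemical modification of ribosomal RNA, lay inside 29 of the 80 genes. There were 56 such genes in all, with 5 in *Rpl4*, which encodes a protein that lines the exit tunnel of the large subunit. The longest coding transcript of the 77 genes tested had a median length of 914 bases (383 to 5179), against 3229 bases over all genes tested. A gene without a coding transcript was given the length of its longest transcript of any type.

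Promoter sequences were available from RefSeq (GRCm38.p6) for 60 of the 80 genes. TOP-like letters were searched as the word CTTTC, the word CTTTT, the word CTTCC and the word CCTTT, which can overlap one another, on the strand of the gene from 10 bases before to 20 bases after the annotated start. They were present in 25 of the 60 genes (41.7%), in 16.2% of the other genes tested and in 15.7% of all genes with a promoter sequence. CCGGAAG, the core of a GABP site, was present on either strand of the 300-base window in 41.7% of the ribosomal protein genes, 18.1% of the other genes tested and 9.93% of all genes. AAGATGGC, the core of the YY1 site, was present in 8.33%, 4.82% and 3.19% in the same order. TATAAA, the core of a TATA box, was present in 6 of the 60 genes, against 9.10% of the other genes tested and 15.7% of all genes, and like the YY1 letters it was searched on both strands. A match is a description of these letters, not a site.

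The starts of 10 genes are shown from 30 bases before to 20 bases after the annotated start, 5′ to 3′ on the strand of the gene, with TOP-like letters in capitals where they lie in the searched stretch, from 10 bases before to 20 bases after the start. The first 4 belong to the genes with the highest fold changes described further on, of which *Rpsa* holds none, as does *Rpl22*, the fifth, at either of its starts. The next 4 show how closely TOP-like letters sit to the start in other members. The last 2, the genes with the lowest and third-lowest fold change, hold none in the searched stretch, though *Rpl4* has such letters farther upstream, in lower case.
Rpl35 (chr2:39005112-39005161, minus strand): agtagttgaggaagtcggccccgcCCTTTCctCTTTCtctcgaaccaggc
Rpl12 (chr2:32961682-32961731, plus strand): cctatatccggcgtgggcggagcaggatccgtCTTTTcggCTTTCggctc
Rps12 (chr10:23787190-23787239, minus strand): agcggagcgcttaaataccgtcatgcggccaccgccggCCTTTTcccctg
Rpsa (chr9:120127736-120127785, plus strand): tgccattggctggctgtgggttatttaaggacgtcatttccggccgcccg
Rps6 (chr4:86857348-86857397, minus strand): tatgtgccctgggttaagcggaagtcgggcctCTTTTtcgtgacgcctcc
Rpl38 (chr11:114668550-114668599, plus strand): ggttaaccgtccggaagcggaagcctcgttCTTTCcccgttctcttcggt
Rplp2 (chr7:141447621-141447670, plus strand): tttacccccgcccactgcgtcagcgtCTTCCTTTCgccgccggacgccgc
Rps27 (chr3:90213629-90213678, minus strand): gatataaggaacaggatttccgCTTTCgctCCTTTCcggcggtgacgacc
Rpl10 (chrX:74270786-74270835, plus strand): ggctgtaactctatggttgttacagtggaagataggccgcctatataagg
Rpl4 (chr9:64173357-64173406, plus strand): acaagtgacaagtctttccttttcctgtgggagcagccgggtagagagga

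The genes were among the most abundant of the tissue. On the scale that divides by transcript length and library size (FPKM), the mean level over the 6 libraries ran from 37.8 for *Rps20* to 1195 for *Rps29*, with a median of 382 over the 77 genes against 9.34 over all genes tested, and 10 of them were among the 100 genes with the highest FPKM. The highest mean FPKM belonged to *Rps29*, *Rpl41*, *Rpl38*, *Rplp1* and *Rps27*, all with short mRNAs. *Rps29*, a zinc-binding protein of the small subunit head, had 503, 937 and 1830 FPKM in NCD1, NCD2 and NCD3 and 1280, 1113 and 1509 in HFD1, HFD2 and HFD3. *Rpl41*, the smallest ribosomal protein, had 576, 956 and 1640 FPKM with NCD and 1274, 1123 and 1439 with HFD. In both genes NCD1 was lowest and NCD3 highest, and the HFD libraries lay between NCD2 and NCD3. Counts of the 77 genes lay between 352 and 7176 per gene and library.

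The 6 libraries differed far more in total count than in their counts from the ribosomal protein genes. Total counts were 15925648, 9937632 and 6882449 in NCD1, NCD2 and NCD3 and 8024664, 10479778 and 5171381 in HFD1, HFD2 and HFD3, a 3.08-fold range. Summed over the 80 genes the counts were 191870, 195709 and 207214 with NCD and 199404, 230064 and 154068 with HFD, a 1.49-fold range. Their share of the total was therefore 1.20%, 1.97% and 3.01% with NCD and 2.48%, 2.20% and 2.98% with HFD. The largest library had the lowest share and the smallest libraries, NCD3 and HFD3, had the highest. The exact 95% binomial intervals of these shares cover counting error only and were narrow, 1.20% to 1.21% in NCD1 and 2.96% to 2.99% in HFD3.

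**Figure D1:**
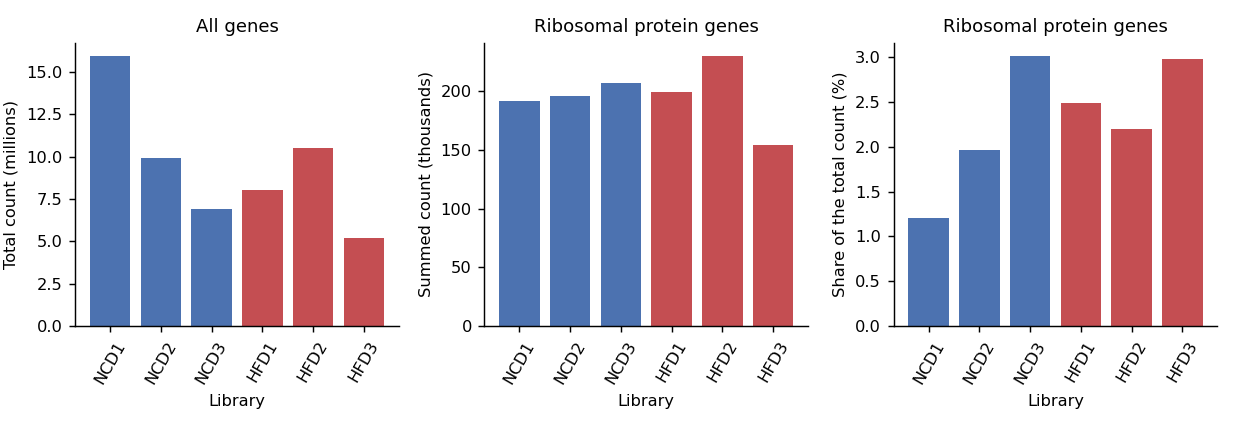
Bars give the total count, the summed count of the 80 ribosomal protein genes and their share of the total in percent, for the 3 NCD (blue) and 3 HFD (red) libraries. The summed counts lay between 154068 and 230064 while the totals ran from 5171381 to 15925648, and NCD1 had the highest total and the lowest share, 1.20%.

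The mean share was 2.06% ± 0.907 with NCD and 2.55% ± 0.396 with HFD (SD, n = 3 each), a difference of 0.492 percentage points that was smaller than the SD of the NCD libraries. Against NCD2 and NCD3 alone the difference was 0.0631. The balance of the subunits varied little: the small subunit took between 36.2% of the ribosomal protein counts in NCD1 and 38.1% in NCD3. The mean of this proportion was 37.2% with either diet.

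The comparison of the diets asks which genes of the ARC differ after 16 weeks of HFD. In a fit of all genes tested, 77 of 77 ribosomal protein genes had a higher fitted level with HFD, against 50.5% of all genes tested. Scaling each library to its own ribosomal protein counts centres these genes near 0 by construction, and 44 of 77 were then higher (7.59% of all genes tested on that scale). The median log2 fold change of the 77 genes was 0.29, against 0.003 over all genes tested, and the values ran from 0.02 for *Rpl10* to 0.65 for *Rpl35*. The standard errors, 0.21 to 0.46, were of the size of the fold changes. No gene passed the threshold of the study's methods, p under 0.05 without adjustment and more than 1.5-fold, which 1.9% of all genes tested passed and 1.01% of all genes tested passed upward. At an unadjusted p under 0.05 edgeR called 0 of the 77, against 2.3% of all genes, and the lowest p was 0.0750. The adjusted p of edgeR was 0.999 for all 77, with 0.0564% of all genes under 0.05. DESeq2's Wald test called 1 gene, *Rpl35*, at the methods' threshold, with 1.65% of all genes past it and none of the 80 past an adjusted p of 0.05.

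In none of the 77 genes did the 3 HFD libraries lie apart from the 3 NCD libraries, whereas they did in 6.47% of all genes tested. Exact permutation tests of the log2 values, two-sided, gave p between 0.2 and 0.9 for the single genes, and 0.1 is the smallest p that 3 against 3 allows. By subunit, the median log2 fold change was 0.30 over 46 large subunit genes (0.02 to 0.65) and 0.29 over 31 small subunit genes (0.12 to 0.50).

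The direction rested on NCD1. In 76 of 77 genes NCD1 had the lowest level of the 6 libraries, against 25.1% of all genes tested, and *Rpl10* was the exception. NCD3 had the highest level in 52 genes, HFD3 in 21, HFD1 in 2 and HFD2 in 2, while NCD1 and NCD2 were highest in none. The level in NCD3 was 1.02 to 5.08 times that in NCD1, with a median of 2.83, whereas the median over all genes tested was 0.961. In 64 of the 77 genes all 3 HFD libraries lay above both NCD1 and NCD2, which held for 12% of all genes tested.

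**Figure D2:**
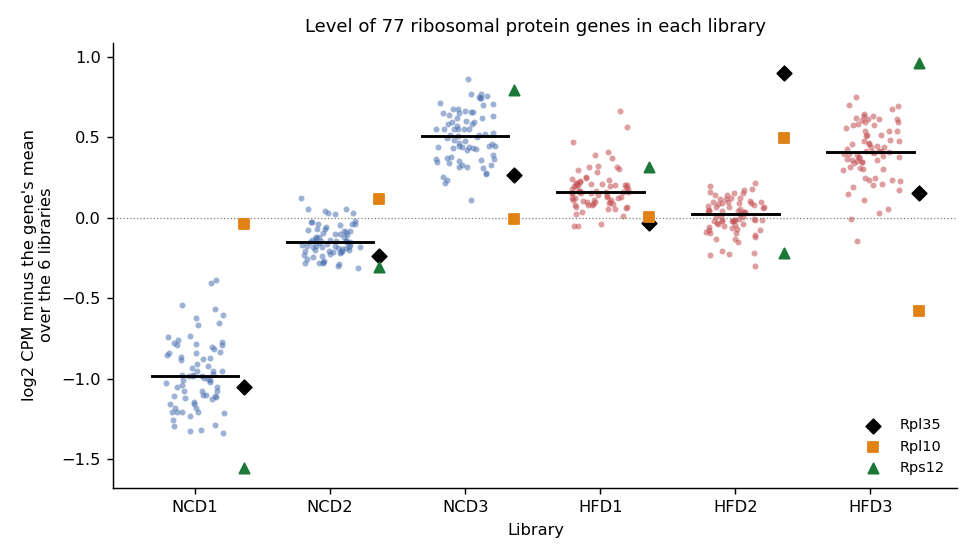
Each point is 1 of the 77 ribosomal protein genes, placed by its log2 count scaled to library size (CPM) in a library minus its mean over the 6 libraries, with NCD in blue, HFD in red and the median as a line. NCD1 was lowest in 76 genes and NCD3 highest in 52; *Rpl35* in HFD2 and *Rpl10* in NCD1 and HFD3 (marked beside the points, with *Rps12*) depart from the other genes.

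Leaving out NCD1 gave a median log2 fold change of -0.01, with 29 of 77 genes higher with HFD (49.5% of all genes tested). Leaving out NCD3 gave a median of 0.73, and 58 of the 77 genes then passed the methods' threshold, against 6.78% of all genes tested, with none past an adjusted p of 0.05. With the log2 total count of the library as a term of the fit, the median was 0.02, 43 of 77 genes were higher with HFD (51.6% of all genes tested), and *Rpl35* alone passed the methods' threshold, as 1.87% of all genes did. When each library was scaled to its ribosomal protein counts, the median of all genes tested shifted to -0.50 and that of the 77 genes was 0.02, near 0 by construction. The diet and the total count were not balanced between the libraries, and the part of the total count in the difference was not tested apart from these fits.

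**Figure D3:**
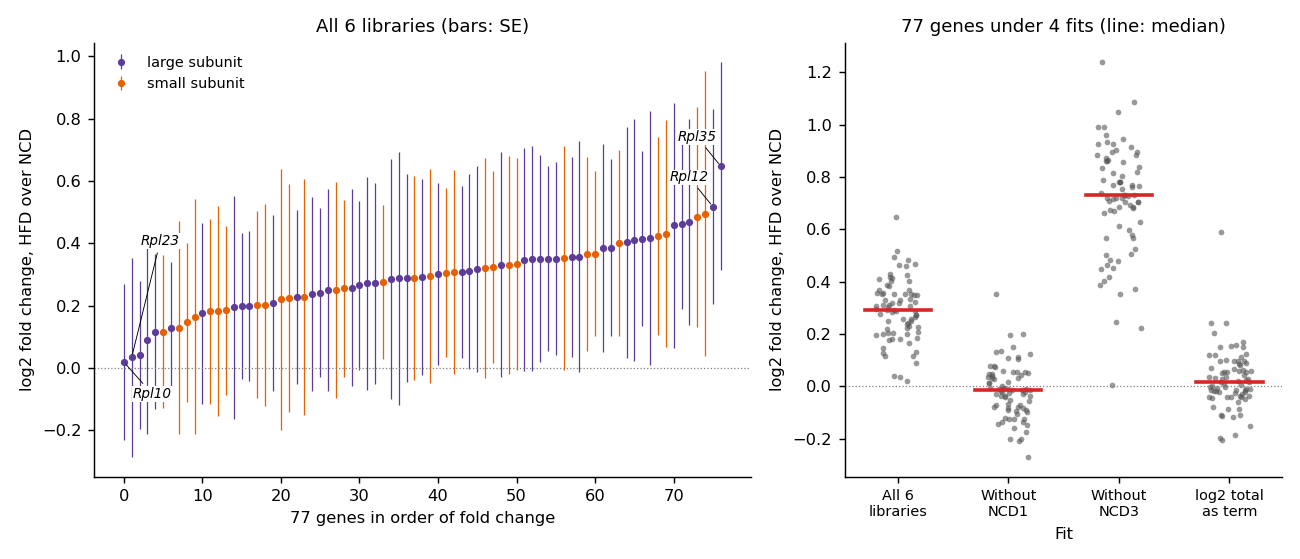
Left, log2 fold change of HFD over NCD for the 77 genes in rank order, with SE bars, for large (purple) and small (orange) subunit genes, all above 0 with 6 libraries. Right, the same 77 values in 4 fits, with red lines at medians of 0.29 with all libraries, -0.01 without NCD1, 0.73 without NCD3 and 0.02 with the log2 total count as a term. With libraries scaled to their ribosomal protein counts, not drawn, which centres these genes near 0 by construction, 44 of 77 were above 0.

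Among the large subunit proteins, *Rpl35*, whose product sits at the mouth of the exit tunnel, had the highest fold change. It lies on chromosome 2 (39001580 to 39005624, GRCm38, minus strand) and has 4 exons. Its normalized counts, scaled to a common library size (CPM), were 155, 273 and 386 in NCD1, NCD2 and NCD3 and 315, 601 and 357 in HFD1, HFD2 and HFD3. HFD2 stood above all other libraries, and HFD1 and HFD3 lay within the NCD range. The log2 fold change was 0.65 ± 0.33 (SE), with an adjusted p of 0.999 in edgeR and a two-sided exact permutation p of 0.3, and it was 0.31 ± 0.33 without HFD2. The count of *Rpl35* in HFD2 was 6093, against 1900 to 2679 in the other libraries, and it lay 0.88 above the pattern of the median ribosomal protein gene on the log2 scale. *Arpc5l* and *Wdr38* overlap *Rpl35* on the other strand. *Arpc5l* had 2353, 1727 and 1043 counts with NCD and 1408, 2133 and 805 with HFD, and *Wdr38* had 34 to 50 counts. Scaled to library size, *Arpc5l* had 142, 176 and 157 CPM with NCD and 175, 210.3 and 151 with HFD, so that HFD2 was its highest library too, and *Wdr38* had 4.04 CPM in HFD2 within a range of 2.95 to 6.40. Reads of *Rpl35* and of these genes cannot be told apart where they overlap if strand was not used in counting.

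*Rpl12*, a protein at the base of the stalk that binds translation factors, came next. Its CPM was 68.3, 126 and 193 with NCD and 165, 169 and 219.8 with HFD, where NCD3 lay inside the HFD range. The log2 fold change was 0.52 ± 0.31 (SE) with an edgeR p of 0.123. The mRNAs of the stalk proteins were measured beside it. *Rplp0*, the anchor of the stalk and a common reference gene in PCR, had the smallest SE, with 176, 239 and 249 CPM with NCD and 250.3, 246 and 229 with HFD and a log2 fold change of 0.13 ± 0.21. *Rplp1* had 181, 373 and 732 CPM with NCD and 714, 388 and 615 with HFD, and its log2 fold change was 0.42 ± 0.41. *Rplp2* had 109, 205 and 268 CPM with NCD and 228, 185 and 244 with HFD, a log2 fold change of 0.18 ± 0.29. The 3 stalk genes shared the low value of NCD1, but the step from NCD1 to NCD3 was 1.41-fold in *Rplp0* and 4.04-fold in *Rplp1*.

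The lowest fold changes belonged to *Rpl10*, *Rpl23*, *Rpl4*, *Rpl32* and *Rpl3*. *Rpl3* and *Rpl4*, long proteins that reach toward the catalytic centre and the exit tunnel, had log2 fold changes of 0.12 ± 0.25 and 0.04 ± 0.24. *Rpl4* had 349, 453 and 581 CPM with NCD and 489, 515 and 418 with HFD. All 3 HFD libraries lay within the NCD range. *Rpl23*, a protein of the interface between the subunits, had 266, 417 and 755 CPM with NCD and 505, 445 and 522 with HFD, and its log2 fold change was 0.03 ± 0.32. In *Rpl32* the log2 fold change was 0.09 ± 0.30.

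*Rpl10*, one of the last proteins to join the large subunit, was the gene in which NCD1 was not the lowest library. Its CPM was 106, 118 and 108 with NCD and 109, 154 and 73.0 with HFD, and HFD3 was lowest. *Rpl10-ps3*, a single-exon gene model on chromosome 9 named as a copy of *Rpl10*, took a share of the summed counts of both models that changed between libraries. The copy held 43.3%, 58.5% and 75.0% of them with NCD and 69.2%, 41.9% and 83.2% with HFD. The exact 95% intervals of the lowest and highest were 40.1% to 43.8% and 81.6% to 84.7%. These intervals cover counting error only, not error in assigning reads to either model. The summed counts were 3117, 2793 and 2875 with NCD and 2857, 2688 and 2307 with HFD. Fitted as 1 gene, the sum had a log2 fold change of 0.22 ± 0.30, against 0.02 ± 0.25 for *Rpl10* alone, so the level of either model is uncertain.

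**Figure D4:**
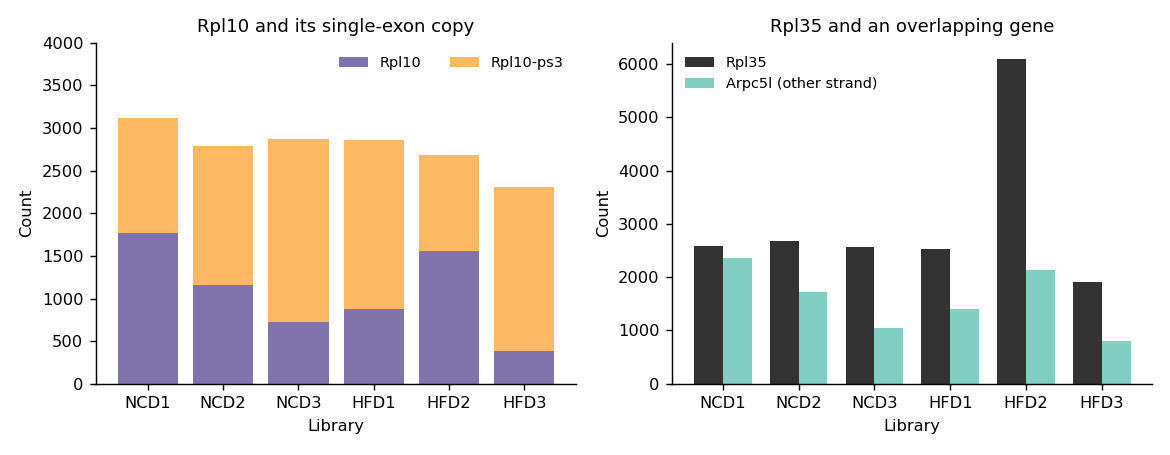
Left, counts of *Rpl10* (purple) and *Rpl10-ps3* (orange) stacked for each library; the copy held from 41.9% of the sum in HFD2 to 83.2% in HFD3. Right, counts of *Rpl35* (black) and of *Arpc5l* (green), which overlaps it on the other strand; *Rpl35* reached 6093 in HFD2 and 1900 to 2679 elsewhere, and *Arpc5l*, whose raw count was highest in NCD1, was highest in HFD2 once scaled to library size (210.3 CPM).

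In the small subunit the highest fold changes belonged to *Rps12* and *Rpsa*. *Rps12*, a protein of the subunit head, had 32.8, 77.7 and 167 CPM with NCD and 120, 82.6 and 187 with HFD. The level in NCD3 was 5.08 times that in NCD1, the highest such ratio of the 77 genes, and the log2 fold change between the diets was 0.50 ± 0.46 (SE). *Rpsa*, also known as the laminin receptor, had 115, 244 and 371 CPM with NCD and 311, 271 and 438 with HFD, a log2 fold change of 0.48 ± 0.35. In both genes HFD3 was highest and NCD3 next. *Rps6*, the protein that S6 kinase phosphorylates downstream of mTOR, had 324, 467 and 638 CPM with NCD and 547, 504 and 531 with HFD, all 3 within the NCD range. Its log2 fold change was 0.15 ± 0.25.

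Departures from the common pattern differed between libraries. Relative to the median ribosomal protein gene of its library, 75 of 77 genes were within 0.25 on the log2 scale in NCD2 and 74 in HFD1. The number was 60 in NCD1 and 64 in HFD3, the largest and the smallest library. *Rpl10* in HFD3 (-0.99) and in NCD1 (0.95) and *Rpl35* in HFD2 (0.88) were the 3 widest departures.

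Several members have relatives elsewhere in the genome. *Rpl10l*, *Rpl39l* and *Rpl3l*, known from testis or muscle, were below the filter with 0 to 4 counts in each library, so their levels were at or near the floor of 3 counts (0.188 CPM in NCD1 to 0.580 in HFD3). Their partners *Rpl39* and *Rpl3* were abundant, with mean FPKM of 229 and 419.9. *Rps27l*, a p53 target, passed the filter with 34.9, 64.4 and 95.4 CPM with NCD and 81.5, 69.5 and 68.7 with HFD and had a log2 fold change of 0.18 ± 0.30. Some relatives lay outside the naming rule. *Rpl22l1* took between 86.1% and 88.6% of its summed counts with *Rpl22* in the NCD libraries and between 82.6% and 88.1% in the HFD libraries. *Rpl22*, an RNA-binding protein of the large subunit surface, had 23.0, 44.1 and 68.2 CPM with NCD and 74.0, 45.9 and 66.2 with HFD, with a log2 fold change of 0.47 ± 0.33, against 0.15 ± 0.31 for *Rpl22l1*. *Rps27rt*, a copy of *Rps27*, held from 21.5% of the summed counts of both in HFD2 to 37.1% in NCD3. The summed fold change of *Rps27* and *Rps27rt* was 0.20 ± 0.36, beside 0.29 ± 0.33 for *Rps27*.

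The X-linked genes had log2 fold changes of 0.33 ± 0.34 (*Rps4x*), 0.29 ± 0.33 (*Rpl36a*), 0.19 ± 0.36 (*Rpl39*) and 0.02 ± 0.25 (*Rpl10*). *Rpl36al*, an autosomal gene with an almost identical product to *Rpl36a*, had 0.27 ± 0.28. *Rpl7*, an RNA-binding protein of the large subunit, had 0.31 ± 0.31, and its relative *Rpl7l1*, a factor of ribosome assembly, -0.09 ± 0.19. None of these passed the methods' threshold.

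Other genes of translation were described by the same counts. *Fau*, which encodes a small subunit protein fused to a ubiquitin-like one, and *Rack1*, a scaffold protein of the small subunit, had log2 fold changes of 0.23 ± 0.28 and 0.31 ± 0.27, and neither passed the methods' threshold. Over the list of 3 ribosomal protein genes with other symbols that holds both, the median was 0.26, against -0.0045 without NCD1 and 0.57 without NCD3. Of 21 elongation factors and other TOP mRNAs, 19 were higher with HFD, none passed, and the median was 0.17, against 0.0052 without NCD1 and 0.34 without NCD3. *Eef1a1*, which brings aminoacyl-tRNA to the ribosome, had 1109, 1419 and 1735 CPM with NCD and 1729, 1518 and 1761 with HFD. Of 29 initiation factors 17 were higher, with a median of 0.02 and none past the threshold, and the median was -0.012 without NCD1 and 0.052 without NCD3. Of 52 ribosome biogenesis genes 26 were higher, with a median of 0.003 and none past, and the median was -0.022 without NCD1 and -0.050 without NCD3. RNA polymerase I and its factors, which make the ribosomal RNA, were higher in 8 of 12 with a median of 0.07 and none past. That median was 0.059 without NCD1, 0.041 without NCD3 and -0.0040 with the log2 total count as a term.

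Of 22 genes that control TOP mRNA translation, 11 were higher and 1 passed the methods' threshold. This was *Eif4ebp1*, an inhibitor of cap-dependent initiation that mTOR switches off. It had 3.91, 2.85 and 3.31 CPM with NCD and 7.83, 4.53 and 6.21 with HFD, without overlap of the diets, and a log2 fold change of 0.87 ± 0.36. Its adjusted p in edgeR was 0.999. *Mtor* had a log2 fold change of -0.12 ± 0.21, *Larp1* 0.13 ± 0.26 and *Rps6kb1*, the S6 kinase, 0.14 ± 0.22. Among 16 ribosome quality control genes, *Gtpbp2*, which frees stalled ribosomes, passed with 7.16, 8.86 and 9.93 CPM with NCD and 14.04, 9.56 and 20.5 with HFD, a log2 fold change of 0.76 ± 0.31 and an adjusted p of 0.999 in edgeR. Its diets overlapped at NCD3 and HFD2, 7 of the 16 genes were higher, and the median was -0.10, against 0.034 without NCD1. Among 13 transcription factors linked to ribosomal protein genes, 8 were higher, with a median of 0.16 and none past, and the median was 0.061 without NCD1, 0.064 without NCD3 and -0.022 with the log2 total count as a term. *Myc* had -0.23 ± 0.27. The share that passes by the same rule over all genes is the 1.9% given before. The most abundant gene was *Eif1* among the initiation factors, *Rrp1* among the biogenesis genes, *Rrn3* for RNA polymerase I, *Rheb* for the control of TOP mRNAs, *Tcf25* for quality control and *Yy1* among the transcription factors.

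Other short mRNAs and the mitochondrial transcripts also had their lowest share in NCD1. Short nuclear genes of oxidative phosphorylation, a list of 46 genes, were all higher with HFD, with a median log2 fold change of 0.19 and none past the threshold, but the median was -0.076 without NCD1, 0.54 without NCD3 and 0.023 with the log2 total count as a term. Their share went from 0.996% in NCD1 through 1.596% in NCD2 to 2.12% in NCD3, with 1.81%, 1.74% and 1.92% in HFD1, HFD2 and HFD3. Of 78 mitochondrial ribosomal protein genes 66 were higher, with a median of 0.13 and none past, and the median was -0.014 without NCD1 and 0.26 without NCD3. The 13 mitochondrially encoded mRNAs took 3.20%, 4.24% and 6.57% of the counts with NCD and 4.16%, 3.51% and 5.77% with HFD. Of these 13, 3 were higher and 10 lower with HFD, with a median log2 fold change of -0.14 and none past the threshold, and the median was 0.17 without NCD3 and -0.37 without NCD1. In contrast, the share of the initiation factors stayed between 0.470% and 0.490% and that of the biogenesis genes between 0.338% and 0.350%. All of these lists shared the libraries with the ribosomal protein genes, and their part in the result was not tested. Their most abundant genes were *Cox4i1* for oxidative phosphorylation, *Mrps33* for the mitochondrial ribosome and *mt-Co1* for the mitochondrially encoded mRNAs.

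Differences between the libraries also varied with transcript length. For a gene without a coding transcript the longest transcript of any type was taken. The other genes were all those tested outside the naming rule, so they include copies of ribosomal protein genes such as *Rpl10-ps3*. Among other genes whose longest coding transcript had at most 750 bases, 84.6% of 273 were higher with HFD, with a median log2 fold change of 0.22, and their median difference of NCD3 minus NCD1 was 1.002 on the log2 scale. For other genes of 3000 to 5000 bases these medians were -0.06 and -0.26, and for those over 5000 bases they were -0.0056 and 0.024, so that the medians did not fall steadily with length. The 23 ribosomal protein genes of at most 750 bases had medians of 0.29 and 1.76, and the 21 of 1000 to 1500 bases had 0.27 and 1.43, where the other genes of that length had 0.11 and 0.28. In each of the 7 length classes the ribosomal protein genes had the larger difference of NCD3 minus NCD1. The 2 longest classes held 1 ribosomal protein gene each. RNA integrity values were not used here, and the part of transcript length in the result was not tested.

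**Figure D5:**
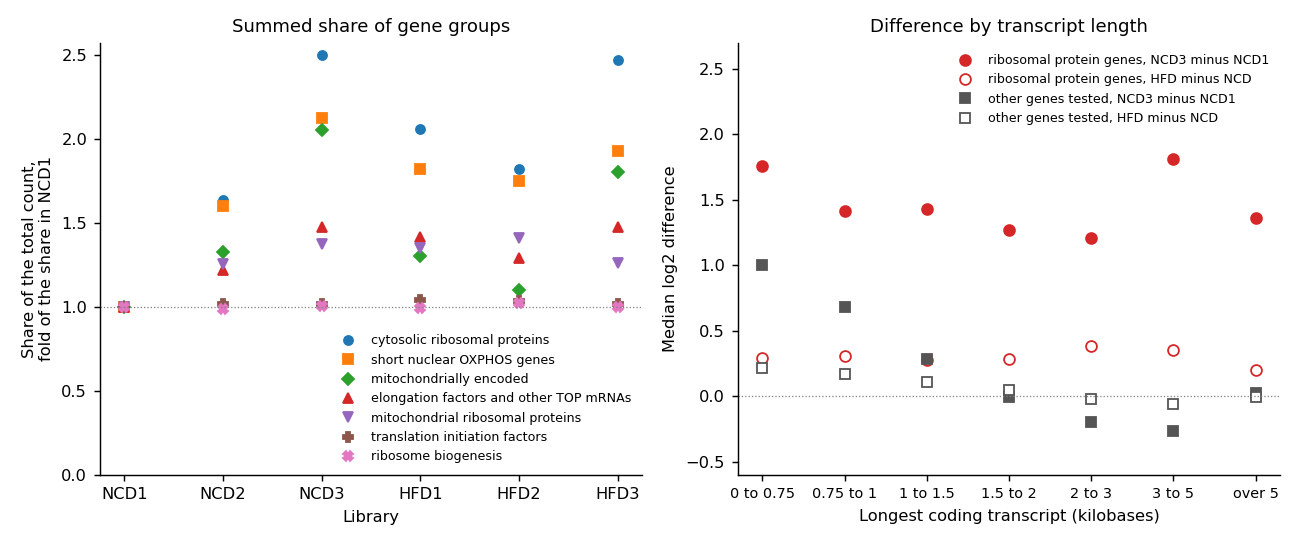
Left, the share of the total count of 7 gene groups in each library, as a fold of the share in NCD1, with the ribosomal protein genes reaching 2.50-fold in NCD3 and the initiation and biogenesis genes staying close to 1. Right, median log2 difference by length of the longest coding transcript, for ribosomal protein genes (red) and other genes (grey), between NCD3 and NCD1 (filled) and between HFD and NCD (open). Genes without a coding transcript were placed by their longest transcript of any type. In the shortest class the filled medians were 1.76 and 1.002, and the open red medians lie above 0. Scaling libraries to their ribosomal protein counts, not drawn, centres these genes near 0 by construction (44 of 77 genes higher).

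Markers of the cell types that the cut area can hold were set beside the result. The 15 ARC neuron genes took 0.223% of the counts in NCD1, their lowest share, and 0.263% to 0.363% elsewhere. NCD1, the library with the lowest ribosomal protein share, had 0.563% of its counts in 12 general neuron genes, against 0.470% to 0.574% in the other libraries, 0.429% in 10 astrocyte genes (0.388% to 0.4997%) and 0.370% in 10 oligodendrocyte genes (0.307% to 0.503%). Microglia genes took 0.0607% in NCD1 and 0.0515% to 0.0728% elsewhere, endothelial genes 0.0355% and 0.0309% to 0.0351%, and oligodendrocyte precursor genes 0.0312% and 0.0222% to 0.0306%. Pericyte and smooth muscle genes took 0.0332% in NCD1 and 0.0235% to 0.0318% elsewhere. Tanycyte and ependymal genes took 0.0363% and 0.0346% to 0.0582%, and red blood cell genes 0.0882% and 0.0907% to 0.253%. Exact 95% intervals of the list shares had bounds whose mean distance from the share was at most 5.67% of it.

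The share of the ribosomal protein genes in NCD3 was 2.50 times that in NCD1. By this ratio alone the red blood cell genes came nearest among these marker lists, with 2.23 times. Over all libraries their share ran otherwise, with 0.0882%, 0.253% and 0.196% with NCD and 0.176%, 0.119% and 0.0907% with HFD. It was highest in NCD2, and HFD3 was close to the lowest, NCD1. The most abundant gene was *Pomc* for ARC neurons, *Avp* for other hypothalamic nuclei, *Snap25* for neurons in general, *Aldoc* for astrocytes, *Mbp* for oligodendrocytes, *Olig1* for their precursors, *Ctss* for microglia, *Itm2a* for endothelium, *Rgs5* for pericytes, *Rarres2* for tanycytes and ependyma and *Hba-a2* for red blood cells. None of the marker genes in the table was at 0 in all libraries.

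Between the diets, 1.9% of all genes tested passed the methods' threshold and 1.01% passed it upward. Of the 15 ARC neuron genes 12 were higher and 3 lower with HFD, and *Cartpt*, *Gal* and *Tac2* passed, all upward. The threshold was passed by 0 of 12 general neuron genes, 0 of 12 microglia genes, 0 of 8 oligodendrocyte precursor genes and 0 of 6 red blood cell genes. Of the general neuron genes 6 were higher and 6 lower, with a median log2 fold change of -0.015. Of the microglia genes 8 were higher and 4 lower, with a median of 0.30, and of 0.13 without NCD1. Of the precursor genes 2 were higher and 6 lower (median -0.18), and all 6 red blood cell genes were lower (median -0.44). Of 10 astrocyte genes 6 were higher and 4 lower, and *Gfap* passed upward. Of 10 oligodendrocyte genes 2 were higher and 8 lower, and *Opalin* passed downward. *Ly6c1* passed upward of 10 endothelial genes, of which 4 were higher and 6 lower, with a median log2 fold change of -0.045. All 9 pericyte and smooth muscle genes tested were lower, and *Acta2* and *Tagln* passed downward. Of 12 tanycyte and ependymal genes 10 were higher and 2 lower, and *Crym* and *Col23a1* passed upward. Of 10 genes of other nuclei 5 were higher and 5 lower, with a median of -0.087, and of 0.15 with the log2 total count as a term. *Avp* and *Oxt*, peptides of the neighbouring magnocellular nuclei, passed downward. The summed share of this list, in which *Avp* was the most abundant gene, was 0.374%, 0.676% and 0.339% with NCD and 0.202%, 0.358% and 0.181% with HFD. The edgeR adjusted p was 0.194 for *Avp* and 0.999 for the other genes that passed. The part of these cell types in the ribosomal protein levels was not tested.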

How the data were processed

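Laser-captured ARC tissue of NCD and HFD mice was sequenced by the authors (3 libraries per diet). Reads were compared with a ribosome database by bowtie2 and aligned with HISAT2, and the authors derived with StringTie and RSEM the deposited whole-number count and FPKM value per gene. Tool versions, annotation release and use of strand are not given in the sources used here; the build named in the submitters' processing notes is mm10. Mean FPKM columns matched the diets of the titles. The log2 fold change, p-value and FDR columns that the authors deposited, from their own comparison of the diets, were not used.

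Identifiers were matched to GENCODE M21 (GRCm38); 22267 of 22322 had a symbol. Counts were filtered with filterByExpr, normalized by TMM and tested over the whole table by quasi-likelihood in edgeR, with diet as the only term and p-values adjusted after Benjamini and Hochberg. CPM values are TMM-normalized, log2 CPM used a prior count of 2, and ± after a log2 fold change is its standard error. The versions were 4.0.16 for edgeR, 1.42.0 for DESeq2, 3.58.1 for limma and 4.3.3 for R, with Python 3.11.15 and matplotlib 3.10.9. The main fit was the edgeR fit with diet as the only term. This edgeR fit was tested on counts simulated with a common dispersion, and the other fits were not. Totals ran from 5171381 to 15925648 counts, and intervals and floors cover counting error only, since reads carried no molecular identifiers.

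Named were members past the methods' threshold, the 5 highest and 5 lowest fold changes, the 5 highest FPKM, members below the filter, members with near copies, and *Rps6*, *Rplp0*, *Rpl35* and *Rpsa*; of each other list, the genes past the threshold (at most 4) and the most abundant. *Rpl10-ps3*, *Rps27rt*, *Rplp2*, *Arpc5l*, *Wdr38*, *Mtor*, *Larp1*, *Rps6kb1*, *Myc*, *Kiss1*, *Gm28040* and *Rack1* were added after their values were seen. The members and lists were chosen with earlier results of these data known. Alternatives were other normalizations, filters and tests, limma on log2(FPKM + 1) and log2(FPKM + 0.1) for genes of mean FPKM of at least 0.5, a replicate block, the log2 total count as a term and each library left out. Scaling to the ribosomal protein counts and summing near copies were chosen after seeing the data. Some genes are not reported by name here.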

Additional observations from a re-analysis of the deposited data

How the results depend on the processing

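The median log2 fold change of the ribosomal protein genes stayed between 0.28 and 0.41 with RLE size factors, library totals alone, TMM factors without these genes, DESeq2, either filter, limma on either FPKM scale and near copies summed, and in these settings at most 1 gene, *Rpl35*, passed the methods' threshold. It passed in DESeq2 (1 gene) and with a filter of at least 1 count (1 gene); with the log2 total count as a term the count was also 1, with 43 genes higher. The replicate number as a block called 5, *Rpl12*, *Rpl35*, *Rpl37*, *Rps12* and *Rpsa* (2.65% of all genes), and 15 had an unadjusted p under 0.05 (4.15% of all genes), with a median of 0.41; 0 passed an adjusted p of 0.05, as in every other setting. The sources used here do not say whether libraries with the same number were handled together. Deviations of libraries with the same number correlated by -0.01, 0.11 and 0.37 for numbers 1, 2 and 3, which cannot decide it.

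With 1 library left out, the number past the methods' threshold ran from 0 to 58 and that of genes higher with HFD from 29 to 77. The number of genes without overlap ran from 0 to 64, and that of all genes past the threshold from 195 to 982. The median ran from -0.01 to 0.73 and the difference of the summed share from 0.0631 to 0.966. The 64 genes without overlap came from leaving out NCD3. With all libraries, 12% of all genes tested had all 3 HFD libraries above NCD1 and NCD2. Without HFD1, 1 gene (*Rpl35*) passed, against 1.34% of all genes. Without HFD2, 0 of the 77 genes and 606 genes of the table (4.23%) passed, and *Rpl9* and *Rps9* did not overlap. All genes past the threshold numbered 427 with at least 1 count and 179 with a mean of at least 50 counts, against 270; fewer genes were tested in the latter. Scaled to the ribosomal protein counts, which centres these genes near 0, 44 were higher (7.59% of all genes) and 4 did not overlap. For the overlap counts with a library left out or with this scaling, the share over all genes is not given here, so they cannot be judged against it. The block and the total count term change no library's value, so no overlap count exists for them.

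Signs turned for single genes as follows. *Rpl10* was -0.032 on either FPKM scale and -0.041 with the block. With the total count as a term, *Rps12* was -0.0019, *Rpl23* -0.20, *Rpl4* -0.030, *Rpl32* -0.15, *Rpl3* -0.021, *Rps29* -0.040, *Rps27* -0.024, *Rpl39* -0.11, *Rps27l* -0.0029 and *Rps6* -0.016. Scaling to the ribosomal protein counts centres these genes near 0 by construction, so that signs had to turn; there *Rpl10* was -0.44, *Rpl23* -0.23, *Rpl4* -0.33, *Rpl32* -0.20, *Rpl3* -0.24, *Rpl41* -0.010, *Rpl39* -0.038, *Rps27l* -0.095, *Rps6* -0.20 and *Rplp0* -0.29. Lowest and highest values with a library left out were -0.28 and 0.25 for *Rpl10*, -0.27 and 0.53 for *Rpl23*, -0.14 and 0.24 for *Rpl4*, -0.20 and 0.50 for *Rpl32*, -0.095 and 0.37 for *Rpl3*, -0.14 and 0.86 for *Rps29*, -0.071 and 0.72 for *Rpl41*, -0.011 and 0.86 for *Rpl38*, -0.037 and 0.71 for *Rps27*, -0.16 and 0.78 for *Rpl39*, -0.13 and 0.57 for *Rps27l*, -0.0044 and 0.84 for *Rps4x*, -0.072 and 0.73 for *Rpl36a*, -0.080 and 0.42 for *Rps6* and -0.025 and 0.22 for *Rplp0*. Among the named genes that kept their sign with each library left out they were 0.31 and 0.99 for *Rpl35*, 0.20 and 0.93 for *Rpl12*, 0.13 and 0.92 for *Rpsa*, 0.073 and 1.24 for *Rps12*, 0.13 and 0.89 for *Rpl22*, 0.014 and 0.78 for *Rpl7* and 0.038 and 1.05 for *Rplp1*. The cause was not tested. The lowest count of the 77 genes in a library was 352.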
